A study of Mus musculus with 18 samples.

Results

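The D-type cyclins, their partner kinases and the CDK inhibitors were followed across 3 populations of lung mononuclear phagocytes from mice that inhaled LPS. The group held 10 genes, taken by symbol from a table of 21254: the D cyclins Ccnd1, Ccnd2 and Ccnd3, the kinases Cdk4 and Cdk6, the inhibitors Cdkn1a (p21), Cdkn1b (p27) and Cdkn2c (p18), the pocket protein gene Rb1 and the E-type cyclin gene Ccne1. All 10 passed the filter on low counts, as did 15811 genes in all. RNA came from CD45+ CD11b+ lung cells of WT and Ezr-KOm mice. They were sorted as moMs, which had Ly6C but no MHC-II, tnsIMs, which had both, and matIMs, which had only MHC-II, 24 h after nebulization with 12.5 mg of LPS in 5 ml for 15 min, with 3 libraries for each population and genotype. WT were Cx3cr1-Cre mice with intact Ezr and Ezr-KOm mice combined the floxed alleles of B6.Ezrinfl/fl with Cx3cr1tm1.1(cre)Jung/J, both on a C57BL/6 background, so Cre was present in the controls too. The Cx3cr1 promoter that drives Cre is also active in other leukocytes, such as conventional dendritic cells. No library analysed here came from mice without LPS. The study's methods describe its mice as adults of a few months, of both sexes in equal shares, for the study as a whole rather than for these libraries. The Ly6C and MHC-II gates are those of the labels, and for matIMs the study's methods text gives the opposite signs.

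D cyclins are the part of the cell cycle machinery that answers to growth factors: they bind and activate CDK4 and CDK6, which phosphorylate the retinoblastoma protein and so release E2F transcription factors. Free E2F drives cyclin E and the genes of DNA replication, and cyclin E with CDK2 completes the passage into S phase. The INK4 protein p18 blocks CDK4 and CDK6 directly, whereas p21 and p27 bind cyclin-CDK complexes, and p21 is a classic target of p53. In lung macrophages these genes bear on whether recruited monocytes and their progeny divide in the tissue.

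Ccnd2 and Ccne1 were among the members with their highest levels in matIMs, and Ccnd3 was lowest in tnsIMs, so the 250 bases before the start of the canonical transcript of these 3 genes are shown (GRCm39, on the strand of the gene, 5′ to 3′). Capitals mark matches, on either strand, to the letters of 6 motifs: E2F (TTTCCCGC, TTTGGCGC, TTTCGCGC or TTTGCCGC), CRE (TGACGTCA), AP-1 (TGANTCA), GAS (TTCNNNGAA), GC box (GGGCGG) and kappaB by its name.
Ccnd2 (chr6:127128024-127128273, minus strand): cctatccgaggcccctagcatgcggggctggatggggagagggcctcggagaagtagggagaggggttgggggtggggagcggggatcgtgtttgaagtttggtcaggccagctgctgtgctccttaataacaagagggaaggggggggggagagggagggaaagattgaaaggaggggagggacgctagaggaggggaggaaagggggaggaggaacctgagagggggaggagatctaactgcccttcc
Ccne1 (chr7:37807038-37807287, minus strand): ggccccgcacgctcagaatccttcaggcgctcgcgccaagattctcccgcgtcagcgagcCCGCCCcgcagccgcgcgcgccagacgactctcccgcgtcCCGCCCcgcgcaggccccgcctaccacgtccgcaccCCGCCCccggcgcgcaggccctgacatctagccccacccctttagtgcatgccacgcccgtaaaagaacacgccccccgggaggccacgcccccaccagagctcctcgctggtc
Ccnd3 (chr17:47904114-47904363, plus strand): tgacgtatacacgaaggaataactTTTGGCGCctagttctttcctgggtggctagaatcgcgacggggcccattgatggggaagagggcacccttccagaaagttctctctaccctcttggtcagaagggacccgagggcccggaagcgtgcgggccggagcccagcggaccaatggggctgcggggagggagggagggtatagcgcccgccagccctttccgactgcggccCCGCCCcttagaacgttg
Ccnd3 held 1 E2F match and 1 GC box, Ccne1 held 3 GC boxes and no E2F match, and Ccnd2 held no match to any of the 6. Of 15754 promoters of tested genes in windows of the same length, 2.7% held an E2F match and 43.4% a GC box. For CRE the share was 1.78%, for AP-1 5.14%, for GAS 6.63% and for kappaB 4.23%. A match is a description of letters, and its absence says only that these letters are not in this window. The windows of Ccnd2 and Ccnd3 lie within the spans of these genes given below. Both genes thus also have annotated sequence upstream of the window, which was not searched.

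Library totals ranged from 16512783 to 48460995 counts, and levels are given as CPM, counts scaled to a common library size with TMM factors, with SDs over the 3 libraries of a group. The targeted gene, Ezr, which encodes the membrane-cytoskeleton linker ezrin, ranged from 93.9 to 282 CPM in the 9 Ezr-KOm libraries and from 497 to 741 CPM in the 9 WT libraries, with no overlap. Its log2 difference between Ezr-KOm and WT was -1.2 for moMs (edgeR adjusted p = 0.0549), -1.62 for tnsIMs (adjusted p = 0.00365) and -2.29 for matIMs (adjusted p = 7.73e-05). The monocyte and macrophage list had all 12 genes above 0 in every group. Its summed level was 27600 to 33900 CPM in WT moMs, 16400 to 22100 CPM in WT tnsIMs and 10500 to 11800 CPM in WT matIMs. Most of this sum was Lyz2, at means of 23300, 12700 and 6570 CPM in the same order. C1qa (91.8, 270 and 307 CPM) and C1qb (326, 863 and 751 CPM) went the other way. The other genes of the list had lower means in WT matIMs than in WT moMs, and Cd68 was at 1040, 1060 and 774 CPM. Tests are edgeR quasi-likelihood F-tests over all 18 libraries, and a gene was called at a Benjamini-Hochberg adjusted p under 0.05 over all 15811 genes. Replicates were separate samples of 3 mice a genotype, by the study's account, and the labels do not tie a library to a mouse.

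**Figure D1:**
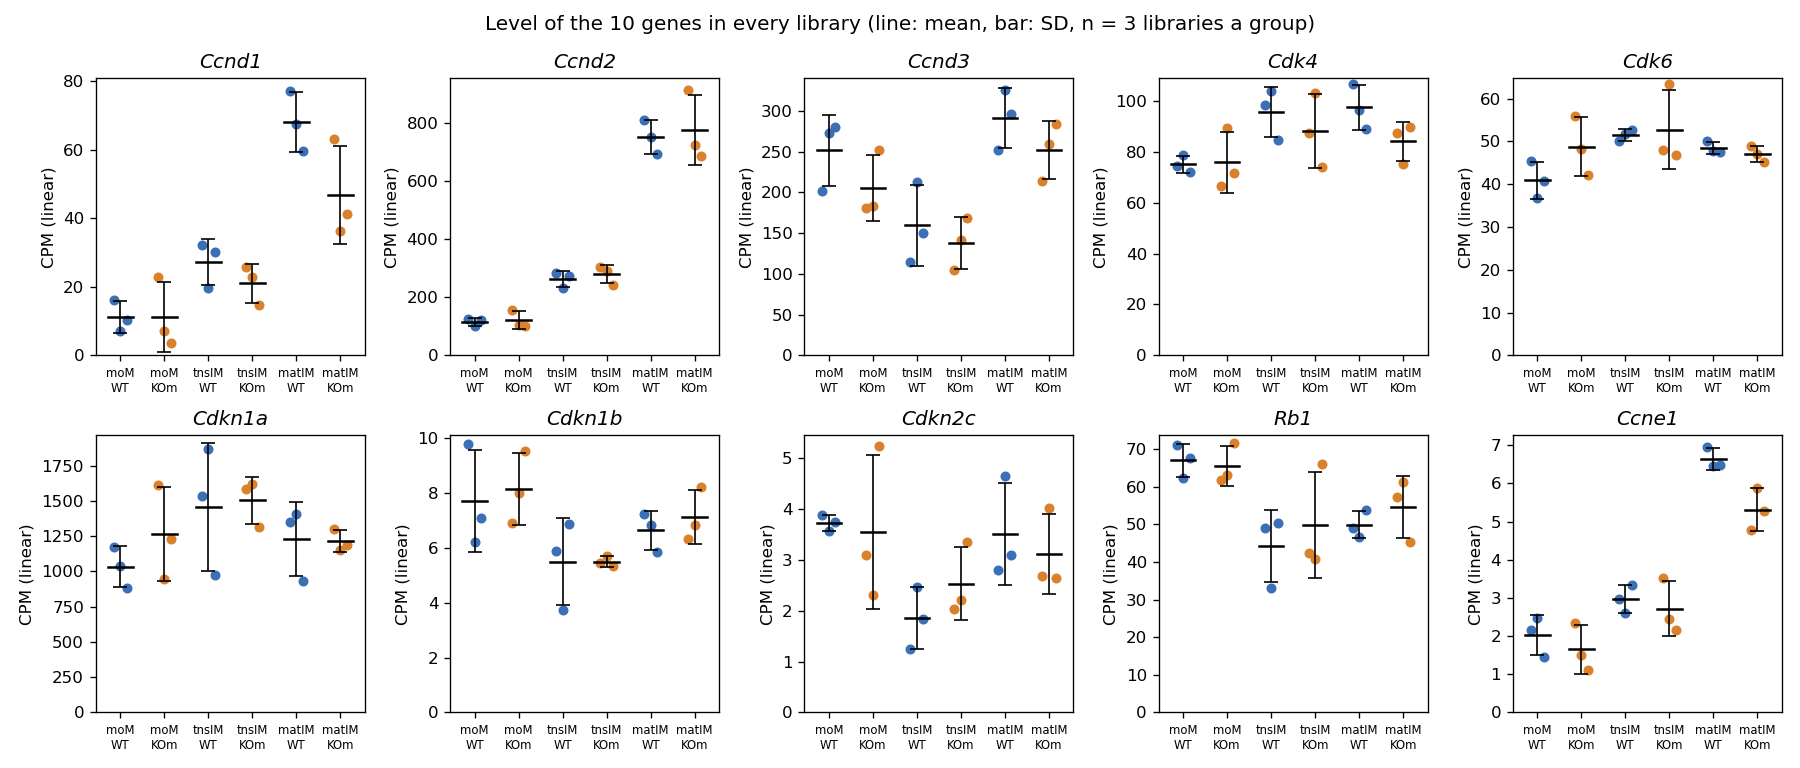
Level of each gene in CPM (linear axis from 0) in the 6 groups. Points are single libraries in the order of their numbers 1 to 3, blue for WT and orange for Ezr-KOm, lines are means and bars SDs (n = 3). Ccnd1, Ccnd2 and Ccne1 are highest in matIMs, where Ccnd2 lies between 687 and 911 CPM, and Cdkn1a lies between 884 and 1871 CPM in all 18 libraries.

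The largest estimated change between populations within the group was that of Ccnd2, the D cyclin best known from lymphocytes and other blood cells (chr6:127102125-127129156, minus strand). In WT moMs it was at 125, 99.9 and 121 CPM in libraries 1, 2 and 3, in WT tnsIMs at 283, 231 and 271 CPM, and in WT matIMs at 810, 752 and 691 CPM. The 3 populations did not overlap, and each step was upward. Ezr-KOm libraries gave 157, 106 and 101 CPM in moMs, 302, 291 and 244 CPM in tnsIMs and 911, 724 and 687 CPM in matIMs, again without overlap. In WT, Ccnd2 rose by a log2 fold change of 1.18 ± 0.17 (SE) from moMs to tnsIMs (edgeR adjusted p = 8.61e-05) and by 1.52 ± 0.17 from tnsIMs to matIMs (adjusted p = 4.51e-06). WT matIMs thus had 6.51 times the level of WT moMs (95% interval 5 to 8.47, edgeR adjusted p = 4.35e-09), and Ezr-KOm matIMs had 6.38 times that of Ezr-KOm moMs (4.9 to 8.29, adjusted p = 5.06e-09). The steps in Ezr-KOm were 1.2 from moMs to tnsIMs (adjusted p = 0.000127) and 1.47 from tnsIMs to matIMs (adjusted p = 6.81e-06) on the log2 scale.

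Ccnd1, the D cyclin induced by mitogens and adhesion in many tissues (chr7:144483668-144493662, minus strand), was at 16.1, 7.13 and 10.4 CPM in WT moMs, at 32.1, 19.7 and 30.2 CPM in WT tnsIMs, and at 77.0, 67.6 and 59.5 CPM in WT matIMs. In Ezr-KOm it was at 23.0, 7.10 and 3.57 CPM in moMs, 25.7, 22.9 and 14.7 CPM in tnsIMs and 63.0, 36.3 and 41.1 CPM in matIMs. The WT populations did not overlap, whereas library 1 of Ezr-KOm moMs lay within the range of Ezr-KOm tnsIMs. Ccnd1 rose 6.09-fold from WT moMs to WT matIMs (95% interval 3.07 to 12.1, edgeR adjusted p = 0.000404) and 4.18-fold from Ezr-KOm moMs to Ezr-KOm matIMs (2.13 to 8.18, adjusted p = 0.00262). Between WT tnsIMs and WT moMs the log2 difference was 1.29 ± 0.46, with an edgeR adjusted p of 0.0506 that became 0.00585 (log2 difference 1.35) with the replicate number as a block, and 0.0405 without library 1 of WT moMs (1.64). In Ezr-KOm the same step was 0.91 ± 0.45 (edgeR adjusted p = 0.206), 1.11 with the replicate block (adjusted p = 0.0256) and 2.03 without library 1 of Ezr-KOm moMs (adjusted p = 0.0017). From WT tnsIMs to WT matIMs Ccnd1 rose by 1.31 ± 0.45 on the log2 scale (edgeR adjusted p = 0.0472), a call that was lost when any 1 of the 6 libraries compared was left out (log2 differences 1.1 to 1.44, adjusted p 0.07 to 0.193). The Ezr-KOm difference, 1.15 ± 0.45, had an edgeR adjusted p of 0.0861, and of 0.0167 with the replicate block (1.12).

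For Ccnd3, the D cyclin of maturing and differentiated blood cells (chr17:47815976-47910616, plus strand), tnsIMs were the lowest population. Its level was 201, 273 and 281 CPM in WT moMs, 115, 213 and 151 CPM in WT tnsIMs and 253, 326 and 297 CPM in WT matIMs. Ezr-KOm libraries had 181, 184 and 252 CPM in moMs, 104, 141 and 168 CPM in tnsIMs and 214, 259 and 284 CPM in matIMs. The tnsIM and matIM libraries did not overlap in either genotype, and library 2 of WT tnsIMs overlapped WT moMs. From tnsIMs to matIMs Ccnd3 rose by a log2 fold change of 0.87 ± 0.22 in WT (edgeR adjusted p = 0.00835) and by 0.87 ± 0.22 in Ezr-KOm (adjusted p = 0.00854). Without library 1 of the tnsIMs these became 0.66 (adjusted p = 0.0566) in WT and 0.7 (adjusted p = 0.0517) in Ezr-KOm. From WT moMs to WT tnsIMs Ccnd3 fell by 0.66 ± 0.22 on the log2 scale (edgeR adjusted p = 0.04), and the call was lost without libraries 2 or 3 of WT moMs or libraries 1 or 3 of WT tnsIMs, taken singly (-0.6 to -0.48, adjusted p 0.0886 to 0.155). In Ezr-KOm the difference was -0.58 ± 0.22 (edgeR adjusted p = 0.0942), or -0.59 with the replicate block (adjusted p = 0.00731). Between matIMs and moMs the log2 difference of Ccnd3 was 0.21 in WT (95% interval -0.25 to 0.67) and 0.3 in Ezr-KOm (-0.17 to 0.76).

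The D cyclins therefore made up the summed D-cyclin level in different shares, which were computed per kilobase of exon so that the genes could be set side by side. In CPM per kb, Ccnd3 took 64.8% ± 7.35 (SD, n = 3) of the sum of the 3 in WT moMs, 33.8% ± 9.79 in WT tnsIMs and 25.2% ± 3.53 in WT matIMs. Ccnd2 took 29.5% ± 4.65, 54.9% ± 6.86 and 63.5% ± 2.57 in the same order, and Ccnd1 5.71% ± 2.71, 11.3% ± 2.96 and 11.3% ± 0.998. With the exon lengths used, Ccnd3 was the largest share in all 6 moM libraries and Ccnd2 in all 12 tnsIM and matIM libraries. In Ezr-KOm the Ccnd2 share went from 34.3% ± 6.47 (moMs) through 60.4% ± 5.49 (tnsIMs) to 68.7% ± 3.9 (matIMs). The summed level was 41.8 ± 3.49 CPM per kb in WT moMs, 50.8 ± 1.35 in WT tnsIMs and 126 ± 6.58 in WT matIMs, and 37.5 ± 4.41, 49 ± 1.9 and 119 ± 11.9 in Ezr-KOm. These shares are descriptions without a test, and they rest on exon lengths of a later annotation than the one the counts were made with. All annotated exons of a gene were merged, which gave 4783 bases for Ccnd1, 9409 for Ccnd2 and 9245 for Ccnd3. The canonical Ccnd3 transcript is much shorter, as a match of 881 bases covers 43.7% of it. A shorter length for Ccnd3 alone would raise its share. Which D cyclin is largest therefore depends on the lengths chosen, as do other ratios per kilobase between genes.

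**Figure D2:**
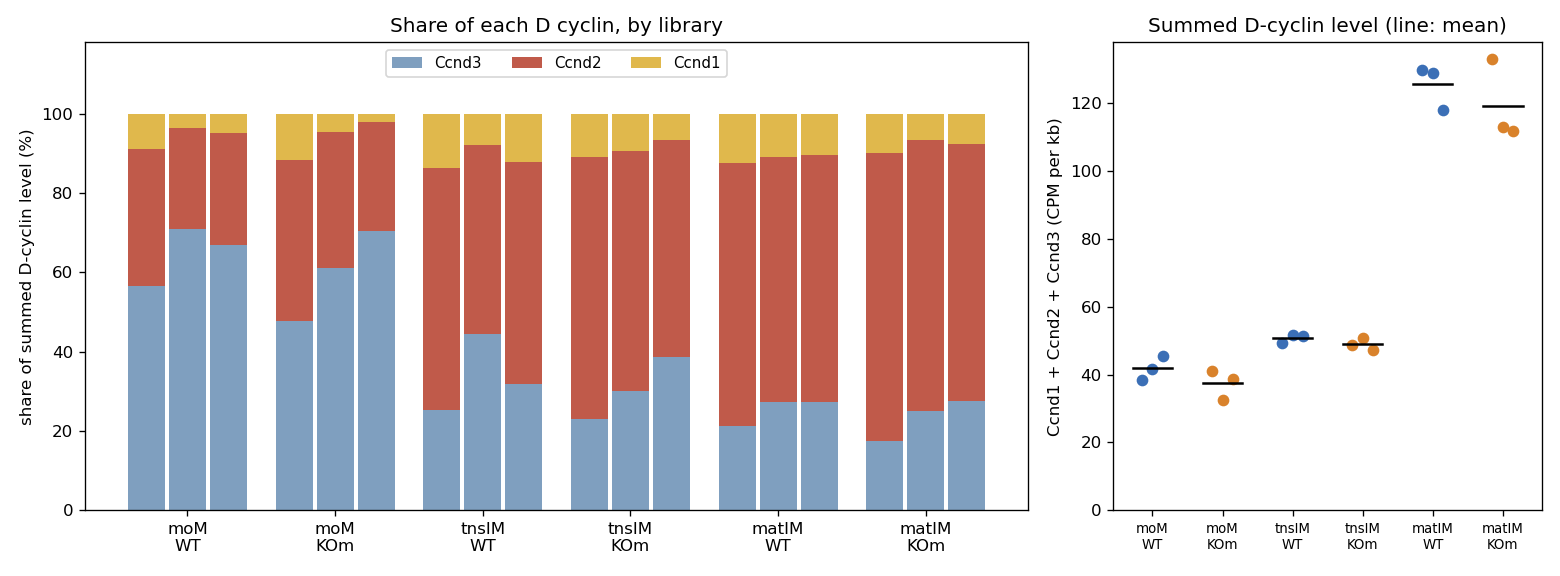
Left, share (%) of Ccnd1, Ccnd2 and Ccnd3 in their summed level per kilobase, 1 bar a library, libraries 1 to 3 of each group from left to right. Right, the summed level in CPM per kb, points for libraries (blue WT, orange Ezr-KOm) and lines for means. With the exon lengths used, Ccnd3 is the largest share in every moM library and Ccnd2 in every tnsIM and matIM library. The sum lies between 112 and 133 CPM per kb in matIMs, above all other libraries.

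Within groups, the D cyclins also followed the library number. The library numbered 1 had the highest Ccnd1 and the highest Ccnd2 of its group in 6 of 6 groups, and the lowest Ccnd3 in 6 of 6 groups. For none of the other 7 members did a single number take the highest or the lowest place in more than 4 groups. The numbers also paired the libraries over all genes: the correlation of deviations from the group means was 0.102 to 0.316 between WT and Ezr-KOm libraries of the same population with the same number, and at most 0.0508 between those of the same population with different numbers. What the numbers stand for is not stated in the labels.

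The partner kinases varied less. Cdk4 (chr10:126899403-126903789, plus strand), the kinase that D cyclins bind in most cells, ranged from 66.7 to 107 CPM over all 18 libraries, with group means of 75.0 to 97.4 CPM. Cdk6 (chr5:3391485-3581008, plus strand), its close relative that is prominent in blood cells, ranged from 36.8 to 63.4 CPM, with group means of 41.0 to 52.8 CPM. Neither was called in the 6 comparisons between populations in the fit of all 18 libraries, but some alternatives called them. With upper-quartile factors both passed in WT tnsIMs against WT moMs (Cdk4 0.45, edgeR adjusted p = 0.0482, and Cdk6 0.42, adjusted p = 0.0485). The largest of these differences was that of Cdk4 between WT matIMs and WT moMs, at 0.38 ± 0.15 on the log2 scale with no overlap of the libraries (edgeR adjusted p = 0.0692, 95% interval 0.07 to 0.68), and it passed with library totals only (0.47, adjusted p = 0.0253) and with only the groups compared (0.38, adjusted p = 0.0406). Cdk6 in WT tnsIMs exceeded that in WT moMs by 0.33 ± 0.14 (edgeR adjusted p = 0.1), also without overlap. Per kilobase of exon, the level of Cdk4 was 6.63 to 8.41 times that of Cdk6 in the means of the 6 groups. While the D-cyclin sum in CPM per kb was 41.8 in WT moMs and 126 in WT matIMs, the level of Cdk4 was 21.8 and 28.3 CPM per kb.

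Among the inhibitors, Cdkn1a (chr17:29309950-29319701, plus strand) had the highest level per kilobase of all members, with group means of 171 to 249 CPM per kb. It lay at 1173, 1040 and 884 CPM in WT moMs, at 1534, 1871 and 973 CPM in WT tnsIMs and at 1348, 1409 and 931 CPM in WT matIMs. Ezr-KOm libraries had 1616, 948 and 1228 CPM in moMs, 1583, 1617 and 1315 CPM in tnsIMs and 1301, 1154 and 1186 CPM in matIMs. The WT groups overlapped, and in Ezr-KOm all matIM libraries lay below all tnsIM libraries while moMs overlapped both. In the fit without a block no difference between populations was called (log2 differences -0.31 to 0.5, edgeR adjusted p 0.122 to 0.898). For the WT tnsIMs against WT moMs the difference was 0.5 ± 0.22 (edgeR adjusted p = 0.122), 0.74 without library 3 of WT tnsIMs (adjusted p = 0.0212) and 0.46 with genotype and number together as a block (adjusted p = 0.0275). The level of Cdkn1a per kilobase was 4.13 ± 0.914 (SD, n = 3) times the D-cyclin sum in WT moMs and 1.61 ± 0.267 times in WT matIMs, and 5.52 ± 0.879 and 1.69 ± 0.0652 times in Ezr-KOm. Cdkn1a lies 22.3 Mb from Ezr on chromosome 17, and Ccnd3 40.8 Mb from it.

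Cdkn2c, which encodes the INK4 inhibitor p18 (chr4:109518073-109524386, minus strand), had low counts, 30 to 119 a library. Its level was 3.87, 3.56 and 3.74 CPM in WT moMs, 1.25, 2.47 and 1.84 CPM in WT tnsIMs and 2.79, 4.66 and 3.09 CPM in WT matIMs. WT tnsIMs lay below both other WT populations without overlap. Cdkn2c fell by 1.02 ± 0.35 on the log2 scale from WT moMs to WT tnsIMs (edgeR adjusted p = 0.0438), but leaving out any 1 of the 6 libraries except library 2 of WT tnsIMs gave an adjusted p of 0.0768 to 0.155 (-1.04 to -0.81). The rise from WT tnsIMs to WT matIMs, 0.93 ± 0.35, had an edgeR adjusted p of 0.0715, and 0.0449 with the replicate block (0.94) or 0.0479 without library 2 of WT tnsIMs (1.15). In Ezr-KOm, Cdkn2c ranged from 2.31 to 5.24 CPM in moMs, 2.04 to 3.35 CPM in tnsIMs and 2.64 to 4.03 CPM in matIMs, and the 3 groups overlapped.

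Cdkn1b, which encodes p27, an inhibitor that is typical of quiescent cells (chr6:134897364-134902476, plus strand), was between 3.74 and 9.79 CPM over the 18 libraries, and no difference between populations was called. The differences between tnsIMs and moMs were -0.47 ± 0.23 in WT (edgeR adjusted p = 0.16) and -0.56 ± 0.23 in Ezr-KOm (adjusted p = 0.116), the latter without overlap of the libraries.

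Downstream of the kinases, Ccne1, the cyclin E1 gene (chr7:37797409-37806959, minus strand), had low counts (25 to 174 a library). WT moMs had 2.16, 2.49 and 1.46 CPM, WT tnsIMs 2.96, 2.60 and 3.33 CPM, and WT matIMs 6.96, 6.45 and 6.48 CPM. In Ezr-KOm, moMs had 2.35, 1.504 and 1.10 CPM, tnsIMs 3.53, 2.45 and 2.16 CPM, and matIMs 4.77, 5.88 and 5.28 CPM. Every matIM library was above every tnsIM and moM library. Ccne1 rose 3.26-fold from WT moMs to WT matIMs (95% interval 2.14 to 4.96, edgeR adjusted p = 0.000221) and 3.21-fold in Ezr-KOm (2.1 to 4.9, adjusted p = 0.000277). From tnsIMs to matIMs it rose by 1.16 ± 0.28 on the log2 scale in WT (edgeR adjusted p = 0.00636) and by 0.97 ± 0.28 in Ezr-KOm (adjusted p = 0.0194). The Ezr-KOm call was lost without libraries 2 or 3 of the tnsIMs or libraries 2 or 3 of the matIMs, taken singly (0.78 to 0.93, adjusted p 0.0619 to 0.104). From moMs to tnsIMs the differences were 0.55 ± 0.29 in WT (edgeR adjusted p = 0.193) and 0.71 ± 0.29 in Ezr-KOm (adjusted p = 0.116, and 0.0255 without library 1 of Ezr-KOm moMs, with 1.1).

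Rb1, which encodes the retinoblastoma protein that CDK4 and CDK6 phosphorylate (chr14:73421113-73563262, minus strand), had its highest levels in moMs. It was at 71.0, 62.3 and 67.7 CPM in WT moMs, 48.9, 33.1 and 50.4 CPM in WT tnsIMs and 49.1, 46.7 and 53.7 CPM in WT matIMs. WT moMs lay above both other WT populations without overlap. Rb1 fell by 0.6 ± 0.19 on the log2 scale from WT moMs to WT tnsIMs (edgeR adjusted p = 0.0279), a call lost without library 1 or 3 of WT moMs or library 2 of WT tnsIMs, taken singly (-0.59 to -0.41, adjusted p 0.0624 to 0.148). In WT matIMs it was 0.43 ± 0.19 below WT moMs (edgeR adjusted p = 0.108). Ezr-KOm libraries had 61.9 to 71.7 CPM in moMs, 40.8 to 65.9 CPM in tnsIMs and 45.2 to 61.2 CPM in matIMs, with no called difference. Without library 3 of Ezr-KOm tnsIMs, the difference between Ezr-KOm tnsIMs and moMs was -0.62 (adjusted p = 0.0246), against -0.4 (edgeR adjusted p = 0.177) with it.

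Counted over the group, 4 of 10 members were called between WT tnsIMs and WT moMs, 1 higher and 3 lower, beside 21.6% of all genes tested. The split was 4 higher and 1 lower with upper-quartile factors, and 2 higher and 0 lower with library totals only. WT matIMs against WT moMs had 3 of 10 called, all higher, beside 24.8% of all genes. WT matIMs against WT tnsIMs had 4 of 10, all higher, beside 18.5%. In Ezr-KOm the numbers were 1 of 10 for tnsIMs against moMs (14.3% of all genes), 3 of 10 for matIMs against moMs (23.3%) and 3 of 10 for matIMs against tnsIMs (18.2%). With the replicate block, 3 of 10 were called in Ezr-KOm tnsIMs against moMs, as they were without library 1 of Ezr-KOm moMs, and 2 without library 3 of Ezr-KOm tnsIMs. Libraries of the compared groups did not overlap for 7, 6 and 5 of the 10 members in WT tnsIMs against moMs, matIMs against moMs and matIMs against tnsIMs, beside 36%, 41.5% and 31.5% of all genes. In Ezr-KOm these were 3, 4 and 6 of the 10, beside 28.7%, 39.9% and 31.2%. The WT tnsIM against moM count was 2 without library 2 of WT moMs, 1 without library 3 of WT moMs and 2 without library 1 of WT tnsIMs, and that of WT matIMs against tnsIMs was 2 without library 1 of WT tnsIMs. The member medians of the log2 difference in WT were 0.34, 0.24 and 0.56 for tnsIMs against moMs, matIMs against moMs and matIMs against tnsIMs, and the medians of all genes were 0.01, 0.01 and 0.04. In Ezr-KOm the member medians were 0.16, 0.05 and 0.34 in the same order, and those of all genes 0.01, 0.01 and 0.02.

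**Figure D3:**
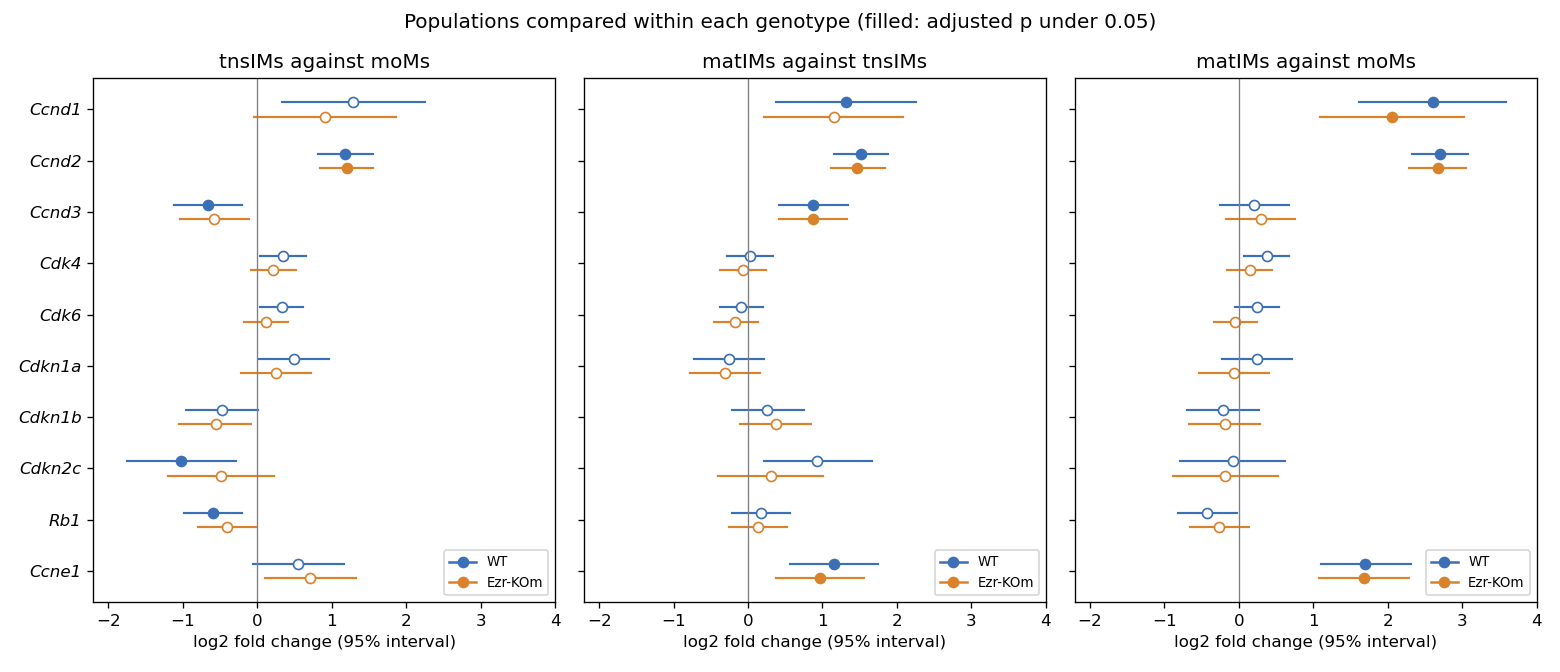
Log2 fold change with its 95% interval for each gene between populations, for WT (blue) and Ezr-KOm (orange). Filled points have an adjusted p under 0.05 and open points do not. Ccnd2 is filled and above 1 in all 6 comparisons, while Cdk4, Cdk6, Cdkn1a and Cdkn1b are open in all 6.

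The loss of ezrin was compared in each population. At the adjusted threshold 0 of 10 members were called in each population, beside 0.171% of all genes for moMs, 0.164% for tnsIMs and 0.152% for matIMs. The looser rule of the study asks for a log2 fold change beyond 0.75 in either direction and p below 0.05 without adjustment. It also called 0 of 10 members in each, beside 2.51% of all genes for moMs, 1.83% for tnsIMs and 2.4% for matIMs. The study itself lists Ccnd1 and Ccnd2 among cell cycle genes downregulated in Ezr-KOm matIMs. In the fit used here their log2 differences in matIMs were -0.54 ± 0.44 and 0.04 ± 0.17, and the reason for this discrepancy was not tested. None of the 10 had an unadjusted p under 0.05 in edgeR, and DESeq2 called 0 at the adjusted threshold. In moMs, 1 member, Ccnd1, met the study's rule when library 1 of Ezr-KOm moMs was left out (log2 difference -1.08, adjusted p = 0.947), against 0 ± 0.46 with it and 0.43 without library 3 of Ezr-KOm moMs.

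How closely these data bound a difference varied by member. The 95% intervals for Ccnd2 ran from -0.28 to 0.43 on the log2 scale in moMs, -0.27 to 0.45 in tnsIMs and -0.31 to 0.4 in matIMs, so that changes of 2-fold lay outside them. For Cdk4 and Cdk6 the 6 intervals together spanned -0.52 to 0.54. The intervals of Ccnd1 were wider: -0.96 to 0.96 in moMs, -1.31 to 0.56 in tnsIMs and -1.46 to 0.38 in matIMs. Its estimates were 0, -0.38 ± 0.44 and -0.54 ± 0.44, each with an edgeR adjusted p of 1. In matIMs library 1 of Ezr-KOm, at 63.0 CPM, lay within the WT range of 59.5 to 77.0 CPM while libraries 2 and 3 lay below it. Between libraries of the same number, Ccnd1 was lower in Ezr-KOm in 3 of 3 pairs in matIMs. In moMs and in tnsIMs Ccnd1 was lower in 2 of 3 pairs. With the replicate block its matIM difference was -0.59 (edgeR adjusted p = 0.888). Ccnd3 was lower in 3 of 3 pairs in moMs and in matIMs and in 2 of 3 in tnsIMs. Its blocked differences were -0.28 in moMs, -0.21 in tnsIMs and -0.21 in matIMs (edgeR adjusted p = 0.992, 0.957 and 0.917). In matIMs 5 of 10 members (Ccnd1, Ccnd3, Cdk6, Cdkn2c and Ccne1) were lower in every pair and 0 higher, beside 14% and 15.6% of all genes. The log2 differences of these 5 ran from -0.54 ± 0.44 for Ccnd1 to -0.04 ± 0.14 for Cdk6, with Cdkn2c at -0.17 ± 0.33. The pairs rest on library numbers whose meaning the labels do not state. Same-numbered libraries of a genotype also deviated together between populations (correlations 0.0905 to 0.397). The pairs of different populations are therefore not independent. In moMs the members lower and higher in every pair numbered 1 and 1 (13.7% and 14% of all genes), and in tnsIMs 1 and 0 (12.9% and 12.7%). Ccne1 was the only member whose WT and Ezr-KOm libraries did not overlap, in matIMs, where Ezr-KOm was lower by a log2 difference of -0.32 ± 0.27 (edgeR adjusted p = 1), and 10.1% of all genes did not overlap there. Cdk6 in moMs had the smallest unadjusted p of the 30 tests, 0.0872, at 0.25 ± 0.14 (edgeR adjusted p = 1).

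The genotype effect was also compared between populations. Of all genes tested, edgeR called 0% for tnsIMs minus moMs, 0% for matIMs minus moMs and 0% for matIMs minus tnsIMs, where 233, 268 and 183 genes, and 0 members, had an unadjusted p under 0.05. The largest such difference among the members was -0.63 ± 0.48 for Cdkn2c in matIMs minus tnsIMs (95% interval -1.64 to 0.38). For Ccnd1 in matIMs minus moMs it was -0.54 (-1.87 to 0.78) on the log2 scale.

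**Figure D4:**
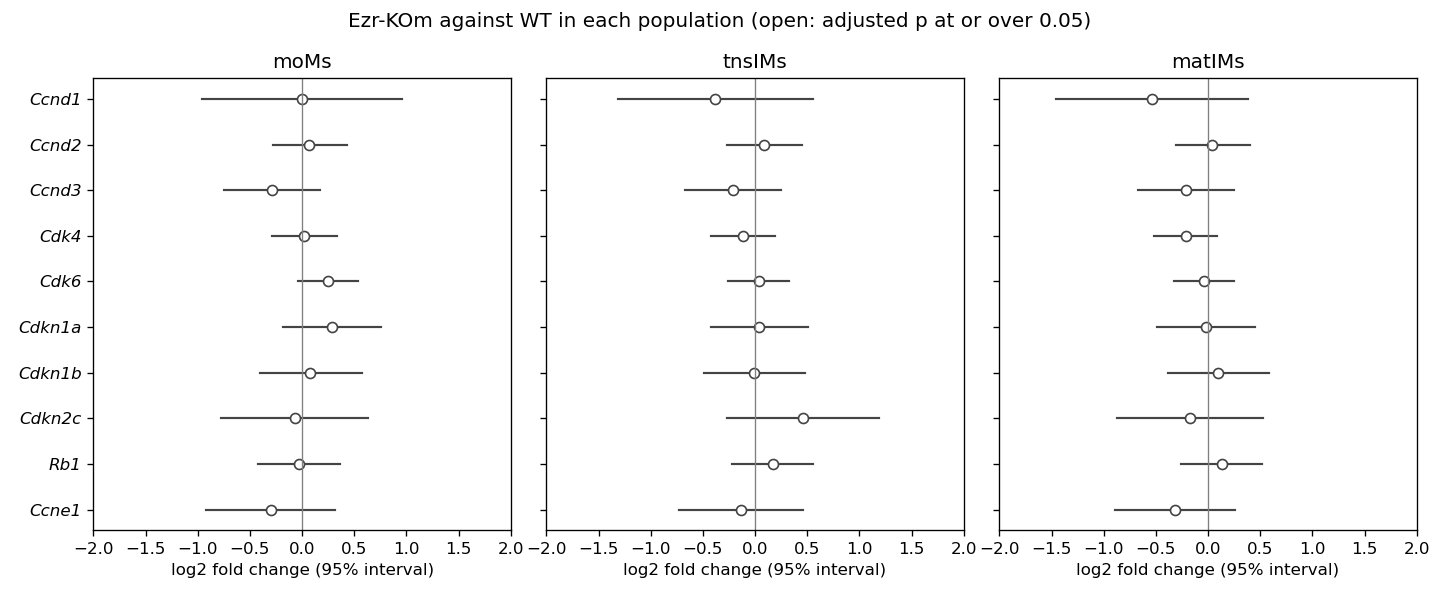
Log2 fold change of Ezr-KOm against WT with its 95% interval for each gene in moMs, tnsIMs and matIMs. All 30 points are open (adjusted p at or over 0.05), and the intervals of Ccnd1 are the widest among the D cyclins and kinases.

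Other genes of the pathway were read from lists. Of 28 G1/S genes that were not members, 27 were tested, and 5 rose and 3 fell from WT moMs to WT matIMs, where 24.8% of all genes were called. Cdkn2b, which encodes the INK4 inhibitor p15, rose by 3.77 ± 0.37 on the log2 scale (edgeR adjusted p = 3.62e-07) in WT, and by 5 ± 0.4 in Ezr-KOm (adjusted p = 3.7e-08), to means of 12.4 CPM in WT matIMs and 11 CPM in Ezr-KOm matIMs. Cdkn2d, which encodes the INK4 inhibitor p19, fell by 1.58 ± 0.22 in WT (edgeR adjusted p = 2.38e-05) and by 1.2 ± 0.21 in Ezr-KOm (adjusted p = 0.000372). Cks1b, a CDK subunit gene, rose by 1.47 in WT (edgeR adjusted p = 0.000184) and by 1.51 in Ezr-KOm (adjusted p = 0.000141). From WT moMs to WT tnsIMs, where 21.6% of all genes were called, 2 of the 27 rose and 3 fell, led by Cdkn2d (-1.84), E2f2 (-1.81), an activator E2F gene, and Fbxo4 (-0.85), a ubiquitin ligase gene. From WT tnsIMs to WT matIMs, where 18.5% of all genes were called, 4 of the 27 rose and 1 fell. Among them were Cdkn2b (2.51), Rbl1 (0.91), which encodes the pocket protein p107, and Ccna2 (2.72), the cyclin A2 gene. In Ezr-KOm the counts were 3 higher and 3 lower for tnsIMs against moMs (14.3% of all genes called). They were 4 and 2 for matIMs against moMs (23.3%), and 6 and 0 for matIMs against tnsIMs (18.2%). Cdkn1c, the p57 gene, was among the 3 with the smallest p in Ezr-KOm tnsIMs against moMs (2.15, edgeR adjusted p = 0.00311).

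Genes that E2F and the cell cycle reach further down were counted next. Of 25 S phase genes, 19 rose and 0 fell from WT moMs to WT matIMs (24.8% of all genes called), with a median log2 difference of 1.24. In Ezr-KOm 18 rose (median 0.98), beside 23.3% of all genes called. The replication helicase gene Mcm6 rose by 2.06 ± 0.17 (edgeR adjusted p = 5.53e-08), Mcm5 by 1.82 ± 0.18 (adjusted p = 4.38e-07) and Uhrf1, which keeps DNA methylation through replication, by 3.18 ± 0.3 (adjusted p = 2.68e-07) in WT. Of 20 mitosis genes, 11 rose in WT matIMs against WT moMs (median 1.56) and 13 in Ezr-KOm (median 1.45), with 0 lower in both. The spindle factor gene Tpx2 rose by 2.18 in WT and Top2a, a topoisomerase gene, by 1.58, and Birc5, which encodes survivin, by 2.82. From WT moMs to WT tnsIMs, where 21.6% of all genes were called, 7 of the 25 S phase genes rose and 0 fell. Mcm6 was at 0.93, Uhrf1 at 1.25 and the replication factor gene Gins2 at 1.05. Of the 20 mitosis genes 0 rose and 2 fell, Aurkb (-1.3) and Kif23 (-1.46), a kinase and a kinesin gene of cell division. From WT tnsIMs to WT matIMs 16 of 25 S phase genes and 16 of 20 mitosis genes rose, beside 18.5% of all genes called. The mitosis genes were led by Aurkb (1.7), Top2a (1.67) and Kif11 (3.1), a spindle kinesin gene. Ezr-KOm had 8 S phase genes higher and 1 mitosis gene lower from moMs to tnsIMs (14.3% of all genes called). From Ezr-KOm tnsIMs to matIMs 14 S phase genes and 11 mitosis genes were higher (18.2% of all genes called).

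Beside Cdkn1a stood 20 other p53 target genes. From WT moMs to WT matIMs 3 rose and 0 fell, beside 24.8% of all genes called, namely Pmaip1 (0.84) and Perp (2.21), genes of cell death, and Sesn2 (0.66), a stress gene. From WT moMs to WT tnsIMs 4 rose, beside 21.6% of all genes called, led by Perp (2.37), Phlda3 (1.36), an Akt inhibitor gene, and Aen (0.46), a nuclease gene. From WT tnsIMs to WT matIMs 2 rose, Sesn2 (0.64) and Pmaip1 (0.56), beside 18.5% of all genes called. The difference of Mdm2, the gene of the p53 ubiquitin ligase, was -0.5 in the latter comparison (edgeR adjusted p = 0.0519). In Ezr-KOm, Pmaip1 rose by 1.28 and Mdm2 fell by 0.56 from moMs to matIMs. There 3 of the 20 rose and 1 fell, beside 23.3% of all genes called. From Ezr-KOm moMs to tnsIMs 1 rose (Perp, 2.76), beside 14.3% of all genes called. From Ezr-KOm tnsIMs to matIMs 1 rose (Pmaip1, 0.86) and 2 fell (Mdm2, -0.64, and Zmat3, -0.96), beside 18.2%. In Ezr-KOm against WT, no gene of the G1/S, S phase, mitosis or p53 target lists was called in any population.

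Over the 18 libraries, the levels of Ccnd1, Ccnd2 and Ccne1 were alike: Pearson's r of their log2 CPM was 0.92 for Ccnd1 with Ccnd2, 0.92 for Ccnd1 with Ccne1 and 0.93 for Ccnd2 with Ccne1, against 0.07 for Ccnd1 with Ccnd3 and 0.21 for Ccnd2 with Ccnd3. The libraries fall into 3 populations, so these values describe mainly the order of the populations and carry no p. The tested genes most like Ccnd2 were Ccr7 (0.99), Klrb1b (0.986) and Blnk (0.985), those most like Ccnd1 were Il21r (0.956), Klrb1b (0.931) and Blnk (0.924), and those most like Ccne1 were Il21r (0.954), Bach2 (0.953) and Utf1 (0.95). Ccnd3 was most like Serpinb1a (0.934), Pigx (0.932) and Fam32a (0.929), and r with Cdkn2c was 0.75. The kinase Cdk4 was most like Hspbp1 (0.945), Nudt2 (0.937) and Sfxn1 (0.931), and Cdk6 most like Trib3 (0.842), Hspa12a (0.834) and Kazald1 (0.815). For Cdkn1a the leading genes were Scand1 (0.874), Selenow (0.859) and Mrpl52 (0.858), for Cdkn1b Akap13 (0.842), Birc6 (0.84) and Trip11 (0.829), for Cdkn2c Cyria (0.904), C9orf72 (0.887) and Far1 (0.861), and for Rb1 Apaf1 (0.949), Ubr3 (0.941) and Itch (0.94). Cdk4 and Rb1 went in opposite directions (r = -0.81).

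The summed markers of dendritic cells and of B and plasma cells moved with the same populations as Ccnd1, Ccnd2 and Ccne1. The 10 genes of the dendritic cell list summed to 120 to 174 CPM in WT moMs, 326 to 587 CPM in WT tnsIMs and 5680 to 7770 CPM in WT matIMs, and to 127 to 163, 428 to 637 and 7190 to 7500 CPM in Ezr-KOm, with no gene at 0 in a whole group. Ccr7, the chemokine receptor of migrating dendritic cells, went from a mean of 13.5 CPM in WT moMs to 1810 CPM in WT matIMs, and Zbtb46, a transcription factor gene of conventional dendritic cells, from 3.49 to 120 CPM. Ccl22 (2630 CPM), Ccr7, Fscn1 (824 CPM) and Cd209a (786 CPM) made up most of the sum in WT matIMs. Xcr1 went the other way, from 6.26 to 3.76 CPM. Clec9a went from 0.948 to 4.05 CPM and Siglech from 0.244 to 0.878 CPM, both low throughout. The 7 genes of the B cell and plasma cell list summed to 9.28 to 13.7 CPM in WT moMs, 62.7 to 102 CPM in WT tnsIMs and 455 to 608 CPM in WT matIMs, and in Ezr-KOm to 9.83 to 12.7, 83.4 to 128 and 347 to 524 CPM. In moMs 1 of these 7 was at 0 in all WT libraries and 2 in all Ezr-KOm libraries. The part of these cells in the levels of the cyclins was not tested, and in bulk RNA a larger number of cells of a type and more RNA per cell cannot be told apart. By the study's description of its gates, dendritic cells were set aside with the CD11c+ cells.

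The order of the libraries within a population differed between tnsIMs and matIMs. In tnsIMs the libraries numbered 1 had the lowest summed list (326 CPM in WT and 428 CPM in Ezr-KOm) and the highest Ccnd1 and Ccnd2 of their groups. In Ezr-KOm matIMs the library numbered 1 had the highest dendritic cell sum (7500, 7490 and 7190 CPM for libraries 1, 2 and 3) and the highest B cell and plasma cell sum (524, 384 and 347 CPM), in the order of Ccnd2. Ccnd1 (63.0, 36.3 and 41.1 CPM) and Ccne1 (4.77, 5.88 and 5.28 CPM) did not follow that order. In WT matIMs library 2 had the highest of both sums (7770 and 608 CPM). In tnsIMs the mean of Ccnd3 was lowest in both genotypes, and Cdkn2c was low in WT. The 8 genes of the epithelial list summed to 2480 to 4100 CPM in WT tnsIMs and 1720 to 3200 CPM in Ezr-KOm tnsIMs. Their sums were 83.6 to 185 CPM in moMs and 342 to 579 CPM in matIMs. In WT tnsIMs most of this sum came from Sftpa1 and Sftpc, at means of 1720 and 1320 CPM. Sftpb, Krt8 and Krt18 were also highest in tnsIMs. Cdh1, Epcam and Scgb1a1 were highest in matIMs, at 238, 12.6 and 12.8 CPM in WT, against 129, 8.39 and 10.4 CPM in WT tnsIMs. The 6 endothelial genes summed to 216 to 479 CPM in tnsIMs, against 74 to 129 CPM in the others. Neutrophil genes (8) summed to 135 to 237 CPM in tnsIMs, 55.4 to 95.8 CPM in moMs and 89.3 to 255 CPM in matIMs (where 1 of the 8 was at 0 in each genotype), and fibroblast genes (6) to 79.5 to 145, 21.9 to 51.9 and 13 to 29.9 CPM. The sum of the 6 alveolar macrophage genes was highest in moMs (4960 to 8420 CPM), then tnsIMs (952 to 2050 CPM) and matIMs (356 to 608 CPM). This order was that of Chil3, at means of 5900, 1220 and 338 CPM in WT. Siglecf (1.85, 6.34 and 8.14 CPM) and Car4 (37.3, 72.9 and 95.9 CPM) rose in the same order. So did Fabp1 (0.0656, 0.541 and 1.4 CPM) and Krt79 (0.94, 1.88 and 6.06 CPM), while Ear2 was at 49.9, 30.3 and 53.4 CPM. The 9 T and NK cell genes summed to 36.7 to 68.1 CPM throughout. The part of these lists in the results was not tested.

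**Figure D5:**
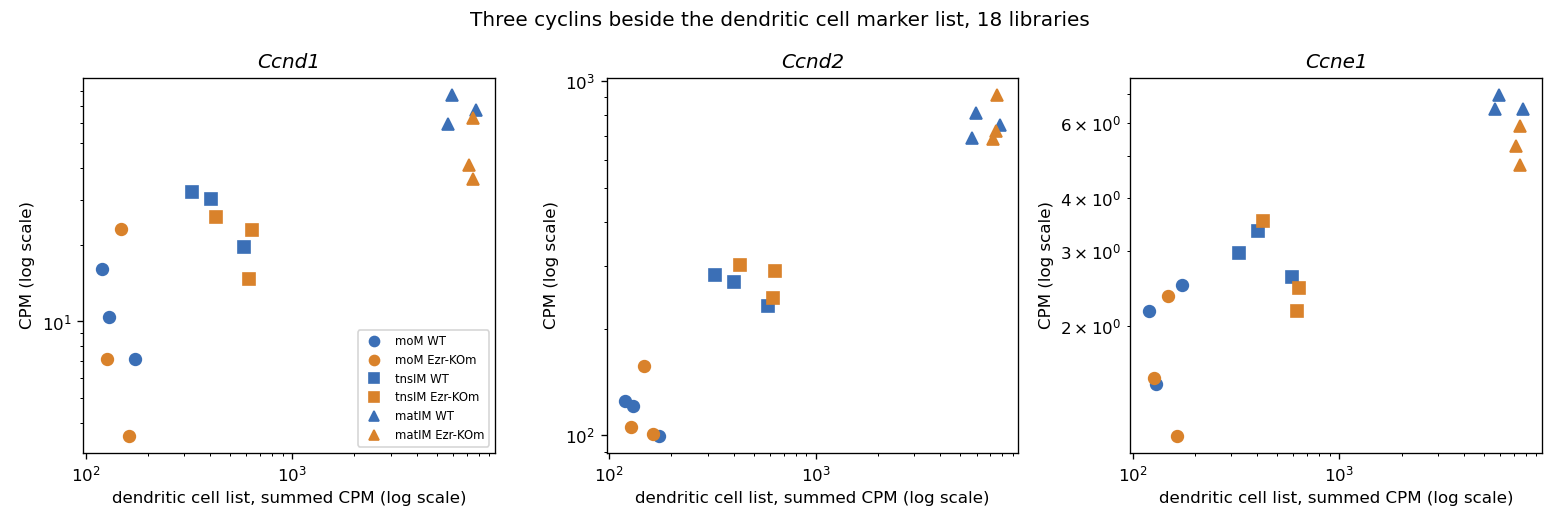
CPM of Ccnd1, Ccnd2 and Ccne1 (vertical, log scale) against the summed CPM of the 10-gene dendritic cell list (horizontal, log scale) in 18 libraries, circles for moMs, squares for tnsIMs, triangles for matIMs, blue for WT and orange for Ezr-KOm. The matIM libraries stand together at list sums of 5680 CPM or more, and in tnsIMs of each genotype the library with the lowest sum has the highest Ccnd1.

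The library kit does not mark strand, so reads from genes that overlap a member on the opposite strand cannot be told from its own. Whether such reads were counted for the member, for the other gene or for neither is not given in the sources used here. The levels per kilobase divide by the whole exon length, the shared part included. Of the exon length of Ccnd1, 48.4% overlapped exons of LTO1 on the other strand in the later annotation, and LTO1 had 128 to 479 counts a library against 81 to 1758 for Ccnd1. From WT moMs to WT matIMs LTO1 differed by 0.3 ± 0.17 on the log2 scale (edgeR adjusted p = 0.219), beside 2.61 for Ccnd1. From Ezr-KOm moMs to Ezr-KOm matIMs LTO1 rose by 0.56 ± 0.17 (edgeR adjusted p = 0.0213), beside 2.06 for Ccnd1. Tspan31 overlapped 18.8% of Cdk4 and had 1913 to 5326 counts a library, and the other members shared 8.34% or less of their exon length with any single gene. A processed pseudogene, Ccnd3-ps, matched 43.7% of the canonical Ccnd3 transcript at an identity of 96.3%, and had 1 to 10 counts a library, against 2510 to 7961 for Ccnd3.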

How the data were processed

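The authors aligned the reads to GRCm39 with STAR 2.7.9a and deposited whole-number read counts per gene, without normalization, per the study's methods and the labels. The strand column used is not given in the sources used here. All 18 columns matched a labelled sample, and no 2 libraries were identical.

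Genes were kept with filterByExpr (smallest count 10) and TMM factors (0.931 to 1.07) were applied. The 18 libraries entered 1 quasi-likelihood fit in edgeR 4.0.16 (R 4.3.3), with Benjamini-Hochberg adjustment over 15811 genes. Members and lists were chosen with earlier results of these data known. Named genes were all members, Ezr, the 3 genes most like each member (Pearson's r of log2 CPM, prior count 2, symbols starting with Gm or ending in Rik left out) and, from each list, the 3 with the smallest p in comparisons with a called member.

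The numbers paired the libraries in 7 of 9 comparisons (every pair's correlation of deviations over 0.1). Alternatives were DESeq2 1.42.0, other scalings, other filters, robust estimation, only the groups compared, a replicate block, a block of genotype and number together and each library left out.

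Exon lengths, promoters and overlaps came from Gencode M39 on GRCm39, and copies from BLAST 2.17.0 (identity at least 90%, at least 200 bases). A further sequence is not reported here. The scripts were tested on simulated data. P-values measure the spread between these samples.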

Additional observations from a re-analysis of the deposited data

How the results depend on the processing

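The matIM against moM calls of Ccnd1, Ccnd2 and Ccne1 held in both genotypes under every alternative run, as did the Ccnd2 calls in the other 4 comparisons of populations. No member passed the adjusted threshold between Ezr-KOm and WT, or in a test of the genotype effect between populations, under any alternative. Counts are small (25 to 174 for Ccne1 and 30 to 119 for Cdkn2c in a library), which limits the precision of these low members, and with 3 libraries a group 1 library can decide a call. Members called between WT tnsIMs and WT moMs numbered 2 with library totals only and 1 to 3 over the left-out libraries. With only the groups compared, 5 were called in WT matIMs against WT moMs (Cdk4 and Rb1 were added), and with the replicate block Cdk4 passed there too (0.38, edgeR adjusted p = 0.0342). In this comparison and its Ezr-KOm counterpart the lowest correlation of same-numbered libraries was under 0.1. Over the left-out libraries the count was 2 to 4 in WT matIMs against WT tnsIMs and 1 to 3 in Ezr-KOm tnsIMs against moMs, where the replicate block and a block of genotype and number together gave 3 each. By the study's rule, 0 to 1 member was called in moMs. The replicate block changed no call beyond these and those given with the results. With library totals only, the median of all genes moved by up to 0.13 (Ezr-KOm matIMs against moMs), and with upper-quartile factors by up to 0.09. The calls of Ccnd3 and Cdkn2c in WT tnsIMs against moMs were lost with both, that of Rb1 with library totals, and that of Ccnd1 in WT matIMs against tnsIMs with upper-quartile factors, DESeq2, robust estimation and at least 10 counts in every library. Ccnd3 was also lost with at least 10 counts in every library, Cdkn2c without a filter on low counts, and, with only the groups compared, Ccnd3, Cdkn2c and, in Ezr-KOm matIMs against tnsIMs, Ccne1. The cause was not tested.

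Differences near 0 changed sign. Between Ezr-KOm and WT tnsIMs Cdkn1b was 0.01 with only the groups compared and 0.02 with the replicate block. With library totals only, Cdkn1a was 0.01 between Ezr-KOm and WT matIMs, Cdkn2c 0.01 between WT matIMs and moMs, and Cdk6 0.08 and Cdkn1a 0.07 between Ezr-KOm matIMs and moMs. Cdk4 between WT matIMs and tnsIMs was -0.02 with upper-quartile factors, -0.01 with at least 10 counts in every library and -0.01 with only the groups compared.

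Leaving out libraries gave these ranges of the log2 difference for members whose sign changed. For Ezr-KOm against WT moMs, Ccnd1 ran from -1.08 to 0.43, Ccnd2 from -0.18 to 0.19, Cdk4 from -0.11 to 0.09, Cdkn1b from -0.05 to 0.29, Cdkn2c from -0.47 to 0.17 and Rb1 from -0.11 to 0.01. For tnsIMs, Ccnd3 ran from -0.38 to 0.05, Cdk4 from -0.25 to 0.02, Cdk6 from -0.12 to 0.15, Cdkn1a from -0.18 to 0.26, Cdkn1b from -0.21 to 0.17, Rb1 from -0.05 to 0.29 and Ccne1 from -0.37 to 0.04. For matIMs, Ccnd2 ran from -0.09 to 0.14, Cdkn1a from -0.19 to 0.1 and Cdkn2c from -0.4 to 0.09. Between WT populations, Cdkn2c ran from -0.37 to 0.02 (matIMs against moMs), Cdk4 from -0.1 to 0.07 and Rb1 from -0.02 to 0.24 (matIMs against tnsIMs). Between Ezr-KOm populations, Cdk6 ran from -0.04 to 0.27 (tnsIMs against moMs), and against moMs the matIM differences of Cdk6, Cdkn1a and Cdkn2c ran from -0.16 to 0.07, from -0.25 to 0.17 and from -0.44 to 0.19. Cdk4 in matIMs against tnsIMs ran from -0.23 to 0.06. None of these was called.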
